A study of Mus musculus with 192 samples.

Results

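Dendritic cells take up antigen, sense microbes and present antigen to T cells. Here they were derived in culture from mouse bone marrow and given PAM and cGAMP together, PAM alone or cGAMP alone, and their RNA was sequenced. The groups were taken by their labels: 3 libraries with both ligands, 3 with PAM and 3 with cGAMP, 9 libraries of a series that holds 64 groups of 3. Every group came from female C57BL/6J mice of 6 to 8 weeks, was cultured in GM-CSF at 15 ng/mL, held 100000 cells a well and was stimulated for 6 hours. A further group, Ctrl, gave the level without these ligands, and 3 groups that also received HMW (PAM with HMW, HMW with cGAMP, and all 3 ligands) repeated the comparison in 9 other libraries. PAM and HMW are the labels' own names, the cyclic dinucleotide is named there as 3',3'-cGAMP, and no dose is given in the labels used here. The labels do not say that replicates came from separate animals or cultures, so p-values measure only the spread between these samples, which may be technical.

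cGAMP binds the adaptor STING (gene Tmem173), which through the kinase TBK1 activates the transcription factor IRF3 and with it type I interferon, and interferon in turn switches on a large set of antiviral genes. Many receptors for bacterial surface components signal instead through the adaptor MyD88 to NF-kB and AP-1 and drive inflammatory cytokines and chemokines. A dendritic cell that senses both kinds of signal at once receives 2 programmes that share some target genes and not others.

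The 9 libraries held between 107471 and 191207 UMI counts, those of Ctrl 61823 to 89530, and those with HMW 142180 to 338983. A UMI (unique molecular identifier) marks 1 original cDNA molecule. Of 23481 genes, 4720 were detected well enough to be tested. Levels are given in CPM, a gene's UMI counts relative to the library's total after that total was multiplied by a TMM factor (edgeR's scaling). The factor was 0.866 to 0.918 with the pair, 1.104 to 1.123 with PAM and 1.062 to 1.076 with cGAMP. CPM values therefore do not sum to the same total in every library. Of 15 dendritic cell and macrophage markers 13 were among the genes counted and 12 were detected in each of the 3 groups. Their summed level was 17140 to 19280 CPM with the pair, 19980 to 20620 with PAM and 18170 to 18870 with cGAMP. Of these markers Flt3 was at 0 with the pair and with cGAMP, and Zbtb46 with PAM. Among them Csf1r, the receptor of the macrophage growth factor CSF1, was lower with the pair, with a mean of 603 CPM against 1343 CPM with PAM and 1099 CPM with cGAMP (log2 differences -1.15 and -0.87). Erythroid markers were at 0 in all 9 libraries, T cell markers summed to at most 35.1 CPM with Cd3e and Cd8a at 0, and neutrophil markers summed to between 608 and 1017 CPM, with Elane and Mpo at 0 with the pair and with PAM. The neutrophil marker Retnlg gave 1 count with the pair, 2 with PAM and 15 with cGAMP and was called below cGAMP. Markers of B cells, mast cells and basophils, and plasmacytoid dendritic cells summed to at most 12.3, 13.7 and 23.4 CPM. Of 6 natural killer cell markers only Klrk1 was detected, at 13.7 to 41.0 CPM with the pair, 30.7 to 45.9 CPM with cGAMP and 0 to 5.56 CPM with PAM, and the part of these markers in the results below was not tested. In such bulk samples, fewer cells of a type and less RNA per cell cannot be told apart.

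The pair differed from PAM alone mostly upward and from cGAMP alone less. Against PAM, 627 genes (13.3% of those tested) were higher with the pair and 329 (6.97%) lower. Against cGAMP, 259 (5.49%) were higher and 160 (3.39%) lower. A call needed an adjusted p under 0.05 (edgeR quasi-likelihood, Benjamini-Hochberg over all tested genes) and a log2 fold change of at least 1 in size. The balance of higher and lower calls rests on the scaling of the libraries. With library size alone in place of TMM scaling, the median log2 fold change of all tested genes moved from -0.07 to -0.40 against PAM and from 0.01 to -0.26 against cGAMP, and the calls became 462 higher and 735 lower against PAM and 178 higher and 320 lower against cGAMP. Log2 differences below are therefore relative to that centre. Each library with the pair lay farther from the mean of PAM (root mean square difference 1, 0.97 and 0.97 on the log2 CPM scale over all tested genes) than from the mean of cGAMP (0.816, 0.776 and 0.777).

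**Figure D1:**
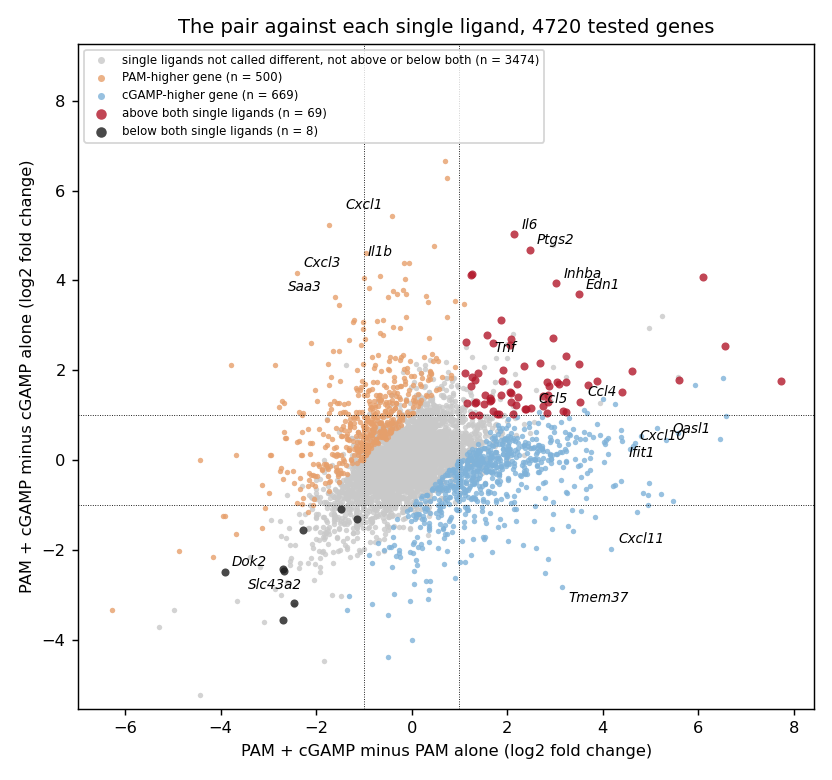
Log2 fold change of the pair over PAM alone (horizontal axis) and over cGAMP alone (vertical axis) for 4720 tested genes, 1 point each; dotted lines mark a log2 fold change of 1 in either direction. The 69 genes above both single ligands lie at the upper right and the 8 below both at the lower left, while cGAMP-higher genes spread along the horizontal axis and many PAM-higher genes lie left of 0. Genes above or below both are drawn in those classes only, so the legend counts fewer PAM-higher and cGAMP-higher genes than the text.

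Genes above both single ligands numbered 69, 1.46% of those tested, by a test that takes the larger of the p-values against PAM and against cGAMP. Their log2 difference to the higher of the single ligands had a median of 1.44 and ran from 1.00 to 4.07. Of the 69, 13 reached a mean of 1000 CPM or more with the pair. All 3 libraries with the pair exceeded all 6 single-ligand libraries for 65 of the 69 genes, against 327 (6.93%) of all tested genes. In 42 of the 69 the single ligands were not called different from each other, 21 were higher with cGAMP than with PAM and 6 were higher with PAM. Of all 4720 tested genes, 3523 had single ligands not called different. Neither single ligand alone had raised the gene over Ctrl in 35 of the 69, while the pair was above Ctrl in 68. Neither single ligand was above Ctrl in 3913 of all 4720 tested genes, a larger share than among the 69. Over all tested genes, 8.01% were above Ctrl with PAM, 11.7% with cGAMP and 17.5% with the pair. The genes nearest the fold threshold were Fam46a at 1.005 and Tap2 at 1.006 inside it, and Cfb at 0.995 and Ptpn2 at 0.994 just outside. The count was 46 by DESeq2 and 35 with library size alone, and in both cases all of those genes were among the 69. When each of the 9 libraries was left out in turn, 35 of the 69 kept their call every time, and 9 kept it in all 16 settings tried. The count was 10 after thinning to equal totals and 129 with no fold threshold.

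Il6 and Tnf, the cytokines at the centre of the acute inflammatory response, both exceeded each single ligand. Il6 was at 5639, 6145 and 5906 CPM with the pair, at 1463, 1207 and 1339 CPM with PAM, at 147, 164 and 221 CPM with cGAMP and at 97.0, 99.8 and 182 CPM in Ctrl. The libraries with cGAMP overlapped those of Ctrl, and every library with the pair was above every other. The pair was 4.41 times the level with PAM and 33.3 times that with cGAMP (log2 differences 2.15 ± 0.14 SE and 5.03 ± 0.18 SE, larger adjusted p = 1.69e-33 in edgeR's quasi-likelihood test, Benjamini-Hochberg). Tnf was at 22170, 24500 and 25930 CPM with the pair, 7565, 8114 and 8617 CPM with PAM, 3796, 3447 and 3363 CPM with cGAMP and 637, 1135 and 797 CPM in Ctrl. Both single ligands raised Tnf over Ctrl with no overlap, and the pair stood 1.58 ± 0.15 (SE) above PAM and 2.78 ± 0.16 (SE) above cGAMP on the log2 scale. Ptgs2, which encodes the inducible cyclooxygenase of prostaglandin synthesis, rose from 158, 216 and 195 CPM with PAM and 36.7, 46.7 and 36.8 CPM with cGAMP to 1218, 909 and 1080 CPM with the pair. The groups did not overlap, and the pair was 5.64 times PAM.

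Edn1 and Inhba were above both ligands although neither ligand alone was called different from Ctrl. Edn1 encodes the vasoconstrictor peptide endothelin-1. It was at 485, 540 and 649 CPM with the pair, at 65.6, 20.1 and 66.7 CPM with PAM, at 45.9, 46.7 and 36.8 CPM with cGAMP and at 41.6, 12.5 and 0 CPM in Ctrl. The 3 other groups overlapped one another and none reached the pair, which stood 3.50 ± 0.34 (SE) above PAM and 3.69 ± 0.37 (SE) above cGAMP on the log2 scale. Inhba, the subunit of activin A, was at 830, 704 and 684 CPM with the pair against 59.1, 101 and 106 CPM with PAM and 64.2, 58.4 and 24.6 CPM with cGAMP. The pair was 8.36 times PAM and 15.1 times cGAMP, and again the single ligands overlapped. Rnd3 was at 168, 212 and 178 CPM with the pair, against 15.1 to 72.2 CPM with PAM and 30.7 to 73.4 CPM with cGAMP. After thinning to equal totals Edn1, Inhba and Rnd3 were no longer called above both. The larger adjusted p of edgeR's quasi-likelihood test was then 0.359 for Edn1 and 0.0903 for Inhba.

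Several of the largest log2 differences belonged to genes with few counts. Nos2, the inducible nitric oxide synthase, was at 52.9, 61.5 and 75.2 CPM with the pair and at 5.03 to 13.1 CPM with either single ligand. Clic5, a chloride intracellular channel protein, gave 20 counts over the 3 libraries with the pair, 0 with PAM and 1 with cGAMP. The pair was at least 8.73-fold higher than PAM with a floor of 3 counts over the group, and its ratio to cGAMP was 21.8 with a 95% counting interval of 3.49 to 905. For 2310014L17Rik the 28 counts with the pair faced 0 with PAM, at least 12.2-fold higher. Tlr6, a Toll-like receptor that pairs with TLR2, gave 24 counts with the pair and 3 with PAM, which is 10.5 times as much (95% counting interval 3.18 to 54.3). Larp1b, a La-related protein, gave 29 counts with the pair and 3 with PAM, and Osgin2 was at 20.5 to 97.1 CPM with the pair and 0 to 17.5 CPM with a single ligand. Calls among these genes often rested on 1 library. Leaving out 1 library ended the call for 2310014L17Rik (without cGAMP replicate 2), for Nos2 (without PAM_cGAMP replicate 3 or cGAMP replicate 2), for Larp1b (without PAM_cGAMP replicate 1, cGAMP replicate 1 or cGAMP replicate 3), for Tlr6 (without PAM_cGAMP replicate 1 or 3 or cGAMP replicate 2) and for Osgin2 (without any of the 9 libraries except PAM_cGAMP replicate 3). The larger adjusted p of edgeR's quasi-likelihood test was then 0.0704 for 2310014L17Rik, 0.0542 and 0.0771 for Nos2, 0.062 to 0.0971 for Larp1b, 0.0765 to 0.271 for Tlr6 and 0.0526 to 0.479 for Osgin2. By DESeq2 neither Tlr6 (larger adjusted p = 0.0829) nor Osgin2 (0.136) was called above both. With library size alone the larger adjusted p of edgeR's quasi-likelihood test was 0.0529 for Tlr6 and 0.0953 for Osgin2, and Osgin2 also lost its call with RLE factors (0.0663) and with no filter on low counts (0.114). Thinned to equal totals, none of Nos2, Clic5, 2310014L17Rik, Tlr6, Larp1b and Osgin2 was called above both. Osgin2 then stood at -0.43 against cGAMP on the log2 scale.

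**Figure D2:**
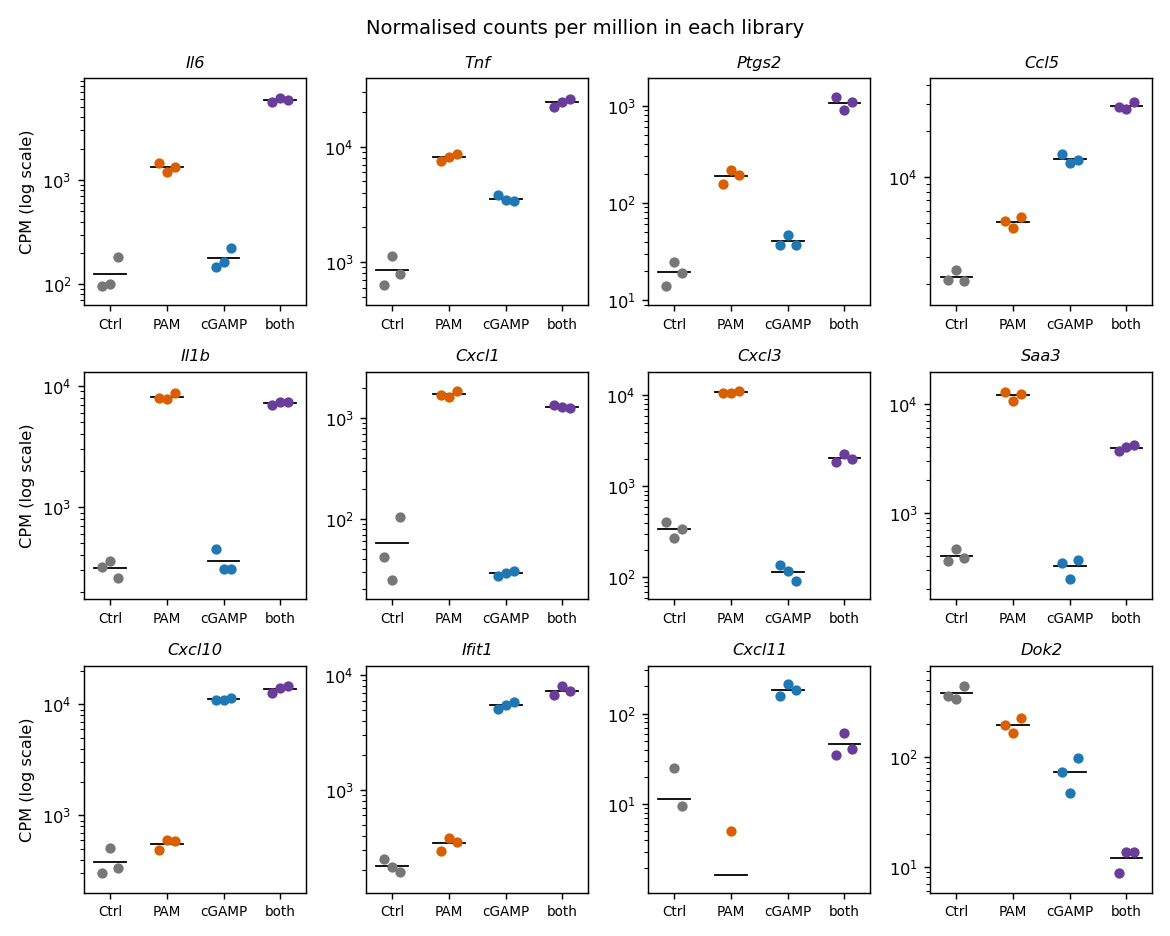
CPM of 12 genes in each library (points; log axis) of Ctrl, PAM, cGAMP and the pair, with the mean of 3 libraries as a line. The top row shows genes above both single ligands, Il1b, Cxcl1, Cxcl10 and Ifit1 show the pair near the level of one ligand, Cxcl3, Saa3 and Cxcl11 show it between the single ligands, and Dok2 shows it below both. Libraries at 0 (Cxcl11: 1 of Ctrl and 2 of PAM) are not drawn on the log axis but enter the mean.

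The list of 24 cytokines and growth factors held 19 tested genes, of which 14 were above PAM, 12 above cGAMP and 8 above both (13.3%, 5.49% and 1.46% of all tested genes). One gene, Tnfsf10, which encodes the death ligand TRAIL, was below cGAMP (log2 difference -1.44) and above PAM (1.93), and none was below PAM. Of all tested genes 3.39% were below cGAMP and 6.97% below PAM. The median log2 difference of the 19 tested genes was 1.93 over PAM and 1.73 over cGAMP, beside -0.07 and 0.01 over all tested genes. The 8 genes above both were Il6, Tnf, Inhba, Il1a, Il1rn, Il12a, Il12b and Tnfsf15. Il1a, an alarm cytokine of the IL-1 family, was at 5391, 5605 and 5475 CPM with the pair, 2526, 2172 and 2289 CPM with PAM and 404, 310 and 258 CPM with cGAMP. Il1rn, the natural antagonist of the IL-1 receptor, was at 5233, 4737 and 5038 CPM with the pair, 1115, 1227 and 1228 CPM with PAM and 1990, 1975 and 2136 CPM with cGAMP. In neither gene did the groups overlap, but PAM was the higher single ligand for Il1a and cGAMP for Il1rn. Il1a stood 0.91 above PAM on the log2 scale with library size alone, under the fold threshold. Tnfsf15, a TNF-family ligand that acts on T cells, followed the order of Il1rn, with means of 2806 CPM with the pair, 843 CPM with cGAMP and 339 CPM with PAM. Il1b, the other IL-1 agonist, was at 6962, 7307 and 7402 CPM with the pair and 7926, 7757 and 8706 CPM with PAM, so that the pair lay below PAM in all 3 libraries by 0.17 on the log2 scale with a 95% interval of -0.39 to 0.05. With cGAMP alone Il1b was at 449, 310 and 307 CPM, close to the 319, 362 and 259 CPM of Ctrl.

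Il12a and Il12b encode the subunits of interleukin-12, the cytokine that steers T cells towards interferon-gamma production. Il12a was at 274, 390 and 314 CPM with the pair, 138, 141 and 133 CPM with PAM and 6.14 to 29.2 CPM with cGAMP, and the pair stood 1.25 ± 0.24 (SE) above PAM on the log2 scale. With library size alone that difference was 0.93 and no longer reached the fold threshold. Il12b was at 185, 123 and 68.4 CPM with the pair and between 17.5 and 32.8 CPM in the 6 single-ligand libraries, and did not overlap with them. Its call ended without any one of 7 of the 9 libraries, all but PAM_cGAMP replicate 3 and cGAMP replicate 1, with a larger adjusted p of 0.0517 to 0.251 in edgeR's quasi-likelihood test. It also ended with library size alone (0.0915) and after thinning to equal totals. Il10, an anti-inflammatory cytokine, gave 8 counts with the pair, 1 with PAM and 0 with cGAMP and was not called above both (larger adjusted p = 0.134 in the same edgeR test). Ifnb1, the first type I interferon made after STING activation, was at 318, 219 and 260 CPM with the pair, 266, 210 and 111 CPM with cGAMP and 13.1 to 33.3 CPM with PAM. The pair overlapped cGAMP, with a log2 difference of 0.47 and a 95% interval of -0.08 to 1.02, and was 12.9 times PAM.

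Chemokines divided between several patterns. Of 17 tested, 9 were above PAM, 10 above cGAMP and 4 above both (13.3%, 5.49% and 1.46% of all tested genes). Cxcl3 alone was below PAM and Cxcl11 alone below cGAMP (6.97% and 3.39% of all tested genes were). The list had a median log2 difference of 1.70 over PAM and 1.29 over cGAMP. The 4 above both were the CC chemokines Ccl2, Ccl3, Ccl4 and Ccl5, which attract monocytes, T cells and other leukocytes. Ccl5 was at 28560, 27710 and 30660 CPM with the pair, 14130, 12210 and 12870 CPM with cGAMP, 5144, 4660 and 5500 CPM with PAM and 2133, 2470 and 2074 CPM in Ctrl. The 4 groups did not overlap and stood in the order pair, cGAMP, PAM, Ctrl. The pair exceeded cGAMP by 1.15 ± 0.14 (SE) on the log2 scale, a difference of 0.88 with library size alone. Ccl4 kept the same order with means of 22500, 9178 and 1967 CPM for the pair, cGAMP and PAM, and so did Ccl2 with 926, 323 and 43.2 CPM. Ccl3 was higher with PAM than with cGAMP, at 4822, 4339 and 4711 CPM against 2751, 2542 and 2160 CPM, and reached 14550, 14540 and 16040 CPM with the pair.

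Cxcl1, a chemokine that attracts neutrophils, stayed near its level with PAM. It was at 1341, 1306 and 1258 CPM with the pair, 1699, 1629 and 1845 CPM with PAM and 27.5, 29.2 and 30.7 CPM with cGAMP. All 3 libraries with the pair were below all 3 with PAM, by 0.41 on the log2 scale with a 95% interval of -0.75 to -0.06 (adjusted p = 0.0708 in edgeR's quasi-likelihood test), and 44.7 times the level with cGAMP. Cxcl2, with a log2 difference to PAM of -0.15, and Ccl17 and Ccl22, ligands of CCR4 at -0.39 and -0.18, were likewise within the margin of PAM. Cxcl3, also an attractant of neutrophils, was classed as lowered. It was at 1862, 2290 and 1975 CPM with the pair, 10670, 10710 and 11280 CPM with PAM, 138, 117 and 92.1 CPM with cGAMP and 402, 274 and 336 CPM in Ctrl. The pair thus held Cxcl3 at a 5.33-fold lower level than PAM and a 17.7-fold higher level than cGAMP, with no overlap between the groups (log2 difference to PAM -2.41 ± 0.19 SE, adjusted p = 5.77e-25 in edgeR's quasi-likelihood test). Cxcl1, Cxcl2 and Cxcl3 are closely related, and how reads shared between such genes were counted is not given in the sources used here.

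Interferon-response genes followed cGAMP. All 15 genes of that list were above PAM (13.3% of all tested genes were), none was above cGAMP at the fold threshold and none was above both. Their median log2 difference was 3.51 over PAM and 0.28 over cGAMP. Cxcl10, a chemokine for activated T cells, was at 12670, 14170 and 14620 CPM with the pair, 10900, 11030 and 11370 CPM with cGAMP, 486, 598 and 589 CPM with PAM and 305, 511 and 336 CPM in Ctrl. All 3 libraries with the pair lay above those with cGAMP, by 0.32 on the log2 scale with a 95% interval of -0.00 to 0.64 (adjusted p = 0.222 in edgeR's quasi-likelihood test). Ifit1, an interferon-induced protein that binds viral RNA, was at 6653, 7957 and 7273 CPM with the pair, 5071, 5440 and 5825 CPM with cGAMP and 295, 382 and 356 CPM with PAM. Its gain over cGAMP was 1.34-fold with no overlap (adjusted p = 0.0159 in the same edgeR test). Oasl1 and Cmpk2, both interferon-induced, had differences to cGAMP of 0.45 (95% interval 0.11 to 0.79) and 0.38 (0.10 to 0.66) on the log2 scale and were 40.6 and 25.7 times PAM. Ifit3 went the other way: it was at 2330, 2427 and 2044 CPM with the pair and 3796, 3640 and 3161 CPM with cGAMP, a difference of -0.64 with a 95% interval of -0.98 to -0.30.

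**Figure D3:**
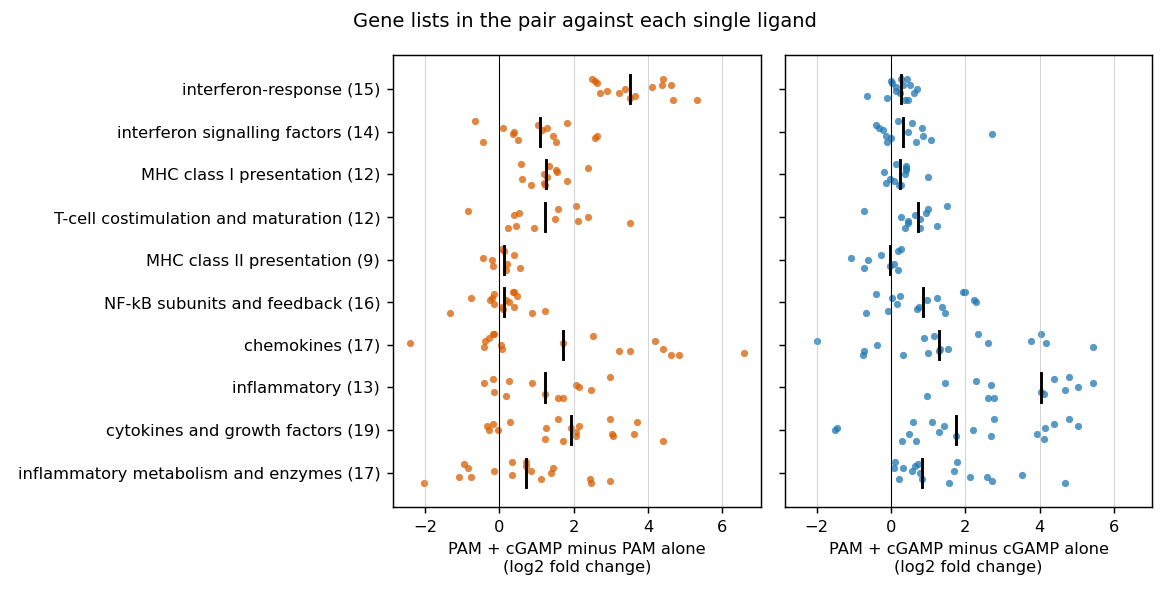
Log2 fold change of the pair over PAM alone (left) and over cGAMP alone (right) for each tested gene of 10 lists (number of genes in brackets; points), with the list's median as a black line. The interferon-response genes lie between 2.48 and 5.31 over PAM and between -0.64 and 0.70 over cGAMP, the inflammatory genes have the highest median over cGAMP (4.03), and the medians of the MHC class II genes are 0.12 and -0.02.

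Signalling genes were counted by list. Of all tested genes 13.3% were above PAM and 5.49% above cGAMP, and 6.97% were below PAM and 3.39% below cGAMP. Of 14 interferon signalling factors 8 were above PAM and 2 above cGAMP, and those within the margin of cGAMP included Stat2, Irf1, Irf5, Irf7 and Socs1. Socs3, a feedback inhibitor of cytokine receptors, was instead within the margin of PAM and 2.72 above cGAMP on the log2 scale. Of 12 AP-1 and related factors 2 were above and 2 below PAM, and 2 above and 1 below cGAMP. Of 16 NF-kB subunits and feedback genes 7 were above cGAMP, none was above PAM and 1, Bcl3, was below PAM (log2 difference -1.31), with Nfkb2, Nfkbiz, Traf1 and Zc3h12a within the margin of PAM; the median log2 difference of the list was 0.13 to PAM and 0.85 to cGAMP. Of 16 sensors and adaptors 4 were above and 3 below PAM, and 4 above and 1 below cGAMP. Cd14, a co-receptor for bacterial lipids, was within the margin of PAM and Mb21d1, the gene of the DNA sensor cGAS, within that of cGAMP. Tmem173, the gene of STING itself, was at 64.2, 58.4 and 73.7 CPM with cGAMP and 44.1, 6.84 and 6.84 CPM with the pair, overlapping the 26.2, 10.1 and 11.1 CPM with PAM (log2 difference to cGAMP -1.87, adjusted p = 0.0307 in edgeR's quasi-likelihood test). Tmem173, like other genes given only as examples of a list, was chosen after its values were seen.

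Genes of antigen presentation and costimulation are set beside the shares of all tested genes, 13.3% above PAM, 5.49% above cGAMP and 1.46% above both. Of 12 tested MHC class I genes 9 were above PAM and 1 above cGAMP, with a median of 1.25 over PAM and 0.25 over cGAMP on the log2 scale. The exception was Tap2, a subunit of the transporter that loads peptides, at 221, 164 and 273 CPM with the pair, 91.9, 80.4 and 100 CPM with PAM and 147, 129 and 61.4 CPM with cGAMP. Tap2 lost its call above both without PAM_cGAMP replicate 3 or cGAMP replicate 3 (larger adjusted p = 0.216 and 0.276 in edgeR's quasi-likelihood test) and was not called above both with RLE factors, with library size alone, by DESeq2, after thinning to equal totals or in a fit of the compared groups and Ctrl alone. None of 9 MHC class II genes was above either ligand, and 1 was below cGAMP (3.39% of all tested genes), counts near those shares. That gene, H2-DMa, a subunit of the chaperone that helps load peptides, was at 115, 82.0 and 75.2 CPM with the pair, 174, 222 and 166 CPM with cGAMP and 98.4, 126 and 133 CPM with PAM (log2 difference to cGAMP -1.08, adjusted p = 0.00909 in edgeR's quasi-likelihood test). The pair did not overlap cGAMP and overlapped PAM. H2-Aa was at 2427, 2857 and 2782 CPM with the pair, 2270, 2468 and 2239 CPM with PAM and 2650, 2314 and 2651 CPM with cGAMP. Of 12 tested costimulation and maturation genes 6 were above PAM, 2 above cGAMP and 1, Cd40, above both. Cd40, the receptor through which T cells license dendritic cells, was at 1597, 1504 and 1429 CPM with the pair, 387, 372 and 322 CPM with PAM, 550, 555 and 479 CPM with cGAMP and 69.3, 112 and 115 CPM in Ctrl, with no overlap between groups. Cd86, Cd274 and Cd69 were within the margin of cGAMP.

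Which ligand set the level of the pair was read from genes whose single ligands differed: 507 genes (10.7%) were higher with PAM than with cGAMP and 690 (14.6%) the reverse. A gene was counted as kept when the pair was called above the lower ligand and the 95% interval of its difference to the higher ligand lay within 1 on the log2 scale in either direction. It was counted as lowered when the pair was called below the higher ligand. Of the 507 PAM-higher genes, 70 were kept (1.48% of all tested genes), 170 lowered (3.6%), 7 raised above PAM (0.148%) and 260 unresolved (5.51%). Of the 690 cGAMP-higher genes, 257 were kept (5.44%), 92 lowered (1.95%), 22 raised above cGAMP (0.466%) and 319 unresolved (6.76%). As a share of each side, 13.8% of PAM-higher and 37.2% of cGAMP-higher genes were kept, and 33.5% and 13.3% were lowered. These counts moved with the settings. A margin of 1.5-fold left 22 PAM-higher and 83 cGAMP-higher genes as kept, and with no fold threshold 286 and 144 were lowered. Under scaling by library size alone, 310 of 557 PAM-higher genes and 134 of 651 cGAMP-higher genes were lowered, and 52 and 200 were kept. Thinned to equal totals, 7 of 59 and 25 of 124 were kept, and 7 and 1 lowered. These classes use the same libraries that chose the genes. When the genes were chosen in the libraries with HMW instead, the pair lay a median of 0.65 below PAM over 399 PAM-higher genes (0.65, 0.63 and 0.59 in the 3 libraries with the pair) and 0.26 below cGAMP over 536 cGAMP-higher genes (0.26, 0.26 and 0.25). The pair was nearer to the lower ligand in 48.4% of the former and 27.8% of the latter. With library size alone the medians were 0.92 and 0.49 below.

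**Figure D4:**
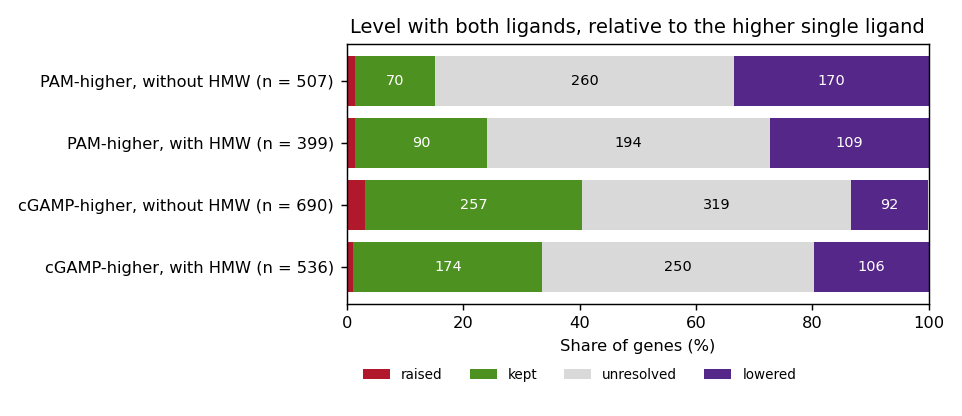
Share of PAM-higher and cGAMP-higher genes (horizontal bars, %) whose level with both ligands was raised above, kept near or lowered from the higher single ligand, or unresolved, with the number of genes in the larger segments. cGAMP-higher genes were kept in 37.2% without and 32.5% with HMW, PAM-higher genes in 13.8% and 22.6%.

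The classes are set here beside what the single ligands had done relative to Ctrl, with no test of a difference between them. The kept genes were also at higher levels: the median level with the higher single ligand was 349 CPM for kept and 104 CPM for lowered PAM-higher genes, and 259 and 142 CPM for kept and lowered cGAMP-higher genes. A narrow interval, which kept requires, and a call over Ctrl are both easier to reach at high counts. PAM had raised 58 of the 70 kept PAM-higher genes over Ctrl, and cGAMP had lowered 3 of them (of all tested genes 8.01% were above Ctrl with PAM and 11.7% with cGAMP, and 5.89% and 5.91% were below). Of the 170 lowered PAM-higher genes, PAM had raised 55 and cGAMP had lowered 59. cGAMP had raised 217 of the 257 kept cGAMP-higher genes. Of the 92 lowered cGAMP-higher genes cGAMP had raised 22, and PAM had lowered 54. All these counts share the PAM, cGAMP and Ctrl libraries with the classes, and are given as descriptions.

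The kept PAM-higher genes with the largest PAM to cGAMP difference were Cxcl1, Cav1, Il1b and Ppfia3. Cav1, the coat protein of caveolae, was at 777, 779 and 793 CPM with the pair, 1240, 1237 and 1267 CPM with PAM and 17.5 to 73.4 CPM with cGAMP; it met the margin for kept and was nonetheless 0.67 below PAM on the log2 scale with no overlap. Ppfia3 rested on 25 counts with the pair and 1 with cGAMP. Among lowered PAM-higher genes the acute-phase gene Saa3 was at 3671, 3992 and 4169 CPM with the pair, 12900, 10730 and 12480 CPM with PAM, 348, 245 and 368 CPM with cGAMP and 360, 462 and 384 CPM in Ctrl. The pair thus stood 1.61 ± 0.17 (SE) below PAM on the log2 scale and 12.3-fold above cGAMP, again with no overlap. Slc39a14, a zinc and iron importer, fell from 65.6, 121 and 83.3 CPM with PAM to 26.5, 20.5 and 34.2 CPM with the pair and gave no count with cGAMP. Rxra, a nuclear receptor, was at 59.1, 35.2 and 38.9 CPM with PAM and gave 1 count with the pair and 0 with cGAMP. The ratio of PAM to the pair, 17.6, rests on that 1 count, and Ctrl was at 37.4 to 55.4 CPM.

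Among lowered cGAMP-higher genes was Cxcl11, an interferon-induced chemokine that shares its receptor with Cxcl10. Cxcl11 was at 35.3, 61.5 and 41.0 CPM with the pair, 156, 210 and 184 CPM with cGAMP and at 1 count in all with PAM. The pair lay 1.98 ± 0.45 (SE) below cGAMP on the log2 scale with no overlap (adjusted p = 3.64e-04 in edgeR's quasi-likelihood test), while Cxcl10 did not fall. I830012O16Rik, at 221, 287 and 280 CPM with the pair, 697, 625 and 485 CPM with cGAMP and 0 to 15.1 CPM with PAM, was likewise intermediate. Tmem37, a calcium channel gamma-like subunit, and Rab19, a small GTPase, fell 7.13-fold and 5.82-fold from cGAMP, to 6.84 to 35.3 CPM and 13.7 to 20.5 CPM. Both then lay near Ctrl, at 24.9 to 28.8 CPM for Tmem37 and 0 to 27.7 CPM for Rab19.

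Promoter sequence gave a further description of the kept genes, shown here for genes that typify the patterns above. Printed are the 250 bases before the annotated start of each gene, 5′ to 3′ on the strand of the gene, from RefSeq on GRCm38.p6. Capitals mark matches to a kB motif (GGG, any 3 bases, TTCC), an interferon-stimulated response element (ISRE: GAAA, any 2 bases, GAAA) or an AP-1 motif (TGANTCA), searched on both strands. Il6, which rose above both ligands, lies on the plus strand at chr5:30012864-30013113; Cxcl1, which followed PAM, on the plus strand at chr5:90890995-90891244; Cxcl10, which followed cGAMP, on the minus strand at chr5:92348890-92349139; Ifit1, which followed cGAMP, on the plus strand at chr19:34640639-34640888.
Il6: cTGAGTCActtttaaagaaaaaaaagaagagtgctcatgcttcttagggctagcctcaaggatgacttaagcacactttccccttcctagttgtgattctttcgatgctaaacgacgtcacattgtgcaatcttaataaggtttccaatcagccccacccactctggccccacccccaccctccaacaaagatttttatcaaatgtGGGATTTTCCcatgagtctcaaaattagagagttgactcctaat
Cxcl1: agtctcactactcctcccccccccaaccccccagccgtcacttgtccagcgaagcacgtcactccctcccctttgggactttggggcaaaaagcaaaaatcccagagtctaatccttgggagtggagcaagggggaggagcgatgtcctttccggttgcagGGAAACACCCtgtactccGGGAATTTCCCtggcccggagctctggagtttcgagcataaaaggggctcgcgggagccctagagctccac
Cxcl10: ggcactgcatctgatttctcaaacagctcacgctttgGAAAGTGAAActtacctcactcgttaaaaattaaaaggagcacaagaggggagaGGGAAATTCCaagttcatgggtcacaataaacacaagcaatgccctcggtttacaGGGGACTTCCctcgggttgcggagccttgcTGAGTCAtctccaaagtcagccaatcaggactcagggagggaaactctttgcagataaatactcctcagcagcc
Ifit1: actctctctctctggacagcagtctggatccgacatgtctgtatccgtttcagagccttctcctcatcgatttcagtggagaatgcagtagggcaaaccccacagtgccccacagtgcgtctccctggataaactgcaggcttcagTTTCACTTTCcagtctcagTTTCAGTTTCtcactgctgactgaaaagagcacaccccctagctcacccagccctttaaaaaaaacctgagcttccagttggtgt
The Il6 window held kB and AP-1 matches, Cxcl1 kB matches alone, Cxcl10 all 3 motifs and Ifit1 ISRE matches alone, those of Ifit1 being on the other strand. A kB match can overlap its own reverse complement, as in Cxcl1. Windows were found for 3807 of the 4720 tested genes. ISRE matches were present in 42 of 209 kept cGAMP-higher genes with a window (20.1%), in 2 of 56 kept PAM-higher genes (3.57%), in 4.44% of tested genes and in 2.98% of all 32851 windows. kB matches were present in 11% and 10.7% of the kept cGAMP-higher and PAM-higher genes, in 6.83% of tested genes and in 4.65% of all windows. AP-1 matches were present in 11% and 5.36% of them, in 6.12% of tested genes and in 6.75% of all windows. Among lowered genes, with windows for 136 of 170 PAM-higher and 75 of 92 cGAMP-higher genes, AP-1 matches were present in 8.09% and 14.7%, ISRE matches in 4.41% and 6.67% and kB matches in 8.82% and 5.33%. For the 69 genes above both the check is void, because only 51 had a window. A match is a run of letters, not a shown binding site.

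Genes below both single ligands were few: 8, or 0.169% of those tested, against 81 at an unadjusted p under 0.05 with the same fold threshold and 7 by DESeq2. Of those 7, 6 were among the 8: Fam63a and Fblim1 were not called by DESeq2 (larger adjusted p = 0.057 and 0.149), and Fermt3 and Fblim1 not by edgeR with no filter on low counts (0.122 for both). After thinning to equal totals 0 were called. All 8 were below Ctrl with the pair, as were 11% of all tested genes. All 3 libraries with the pair lay below all 6 single-ligand libraries in each of the 8, as in 154 (3.26%) of all tested genes. Dok2, an adaptor that restrains tyrosine kinase signalling, was at 8.82, 13.7 and 13.7 CPM with the pair, 197, 166 and 228 CPM with PAM, 73.4, 46.7 and 98.2 CPM with cGAMP and 360, 337 and 442 CPM in Ctrl. The groups did not overlap and stood in the order Ctrl, PAM, cGAMP, pair. Slc43a2, an amino acid transporter, was at 0 to 27.3 CPM with the pair, 39.4 to 121 CPM with PAM, 64.2 to 85.9 CPM with cGAMP and 263 to 374 CPM in Ctrl. Fermt3, kindlin-3, which activates integrins in leukocytes, was at 44.1, 75.2 and 88.9 CPM with the pair, 164, 236 and 195 CPM with PAM and 147, 210 and 98.2 CPM with cGAMP. Cyth4, an exchange factor for ARF GTPases, was 2.17-fold lower than with PAM and 2.47-fold lower than with cGAMP, and Atp13a2, a lysosomal polyamine transporter, 5.11-fold and 3.19-fold lower. The other 3 were Fblim1, with 2 counts with the pair, 19 with PAM and 29 with cGAMP, 5430435G22Rik and Fam63a. With library size alone the genes below both numbered 48, all 8 among them.

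None of these 8 calls was kept when each library was left out in turn. Slc43a2 lost its call without PAM_cGAMP replicate 2 (larger adjusted p = 0.102 in edgeR's quasi-likelihood test, as for the values that follow). Cyth4 lost it without PAM_cGAMP replicate 2 or PAM replicate 2 (0.0576 and 0.0608) and 5430435G22Rik without the same libraries (0.136 and 0.142). Dok2 lost it without any library of the pair or without cGAMP replicate 3 (0.0584 to 0.143). Fam63a lost it without PAM_cGAMP replicate 2 or 3 or cGAMP replicate 2 (0.0515 to 0.461). Atp13a2 lost it without PAM_cGAMP replicate 1 or 3 or cGAMP replicate 1 or 2 (0.0528 to 0.148), Fermt3 without PAM_cGAMP replicate 1 or 2 or cGAMP replicate 1 or 2 (0.0566 to 0.526), and Fblim1 without any of 8 of the 9 libraries, all but PAM replicate 3 (0.0566 to 0.297).

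The interaction asks whether the log2 effect of the pair over Ctrl differs from the sum of the effects of PAM and of cGAMP over Ctrl. It was positive in 36 genes (0.763%) and negative in 85 (1.8%). DESeq2 gave 47 negative interactions, and edgeR with no filter on low counts gave 18 positive ones. Of the 69 genes above both, 8 had a positive interaction: Clic5, Gdf15, Il1rn, Il6, Pim1, Rcbtb1, Syf2 and Tlr6. That of Il6 was 1.70 (adjusted p = 1.79e-03 in edgeR's quasi-likelihood test). That of Tnf was -0.46 and that of Ccl5 -0.05, and both missed the threshold. Each ligand alone was above Ctrl in Tnf and in Ccl5. Negative interactions included the interferon-response gene Mx1, at -1.08, and Saa3, at -1.27. The Ctrl libraries were the shallowest of the 4 groups in the interaction and enter each of these values.

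The comparison was repeated in libraries that also held HMW, which share no library with the first. Of the 69 genes above both, 32 were again above both (46.4% of the 69, and 78% of the 41 genes called there, which were 0.869% of those tested). All 69 were higher than both on the log2 scale by any amount, as were 1351 of all tested genes. All 3 libraries with the 3 ligands exceeded the other 6 for 57 of the 69, beside 311 (6.59%) of all tested genes. Edn1 stood 2.99 and 3.69 above PAM with HMW and above HMW with cGAMP, Inhba 2.44 and 3.24, Nos2 3.79 and 3.28, and Tnf 1.31 and 2.73. Il12a and Il1a did not repeat at the fold threshold, at 0.51 and 0.48 over PAM with HMW, and Tlr6 stood at 0.00. Of the 8 genes below both, 5430435G22Rik alone was called again (7 genes, 0.148% of those tested, were called there), and all 8 were lower than both by any amount, as were 1435 of all tested genes.

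**Figure D5:**
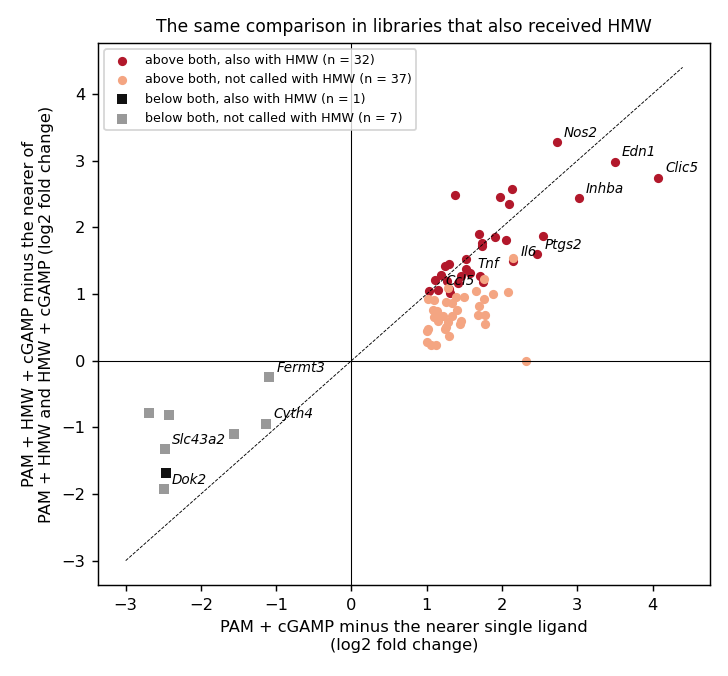
Log2 difference of the pair to the nearer single ligand (horizontal axis) and of PAM, HMW and cGAMP together to the nearer of PAM with HMW and HMW with cGAMP (vertical axis), for the 69 genes above and the 8 below both single ligands. Dark symbols mark the 32 and 1 genes called in both sets of libraries; the dashed line marks equal differences.

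The classes also recurred in part. With HMW, 399 genes (8.45%) were PAM-higher and 536 (11.4%) cGAMP-higher. Of the 70 kept PAM-higher genes 50 were kept there, of the 170 lowered 64 were lowered, of the 257 kept cGAMP-higher genes 114 were kept, and of the 92 lowered 54 were lowered. Of all 4720 tested genes, 90 were kept PAM-higher, 109 lowered PAM-higher, 174 kept cGAMP-higher and 106 lowered cGAMP-higher genes with HMW. What PAM added to cGAMP was not called different with and without HMW in any gene (0 by edgeR's quasi-likelihood test and 0 by DESeq2, 215 at an unadjusted p under 0.05). What cGAMP added to PAM differed in 84 genes (1.78%) and was smaller with HMW in 83 of them. Those included 12 of the 15 interferon-response genes. Ifit1 was at 295, 382 and 356 CPM with PAM but 1425, 1579 and 1128 CPM with PAM and HMW, and at 6640, 5930 and 6653 CPM with all 3 ligands, close to the pair.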

How the data were processed

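Gene-level UMI counts were taken as deposited. The authors made the count table with BWA 0.7.15 on mm10, per the submitters' processing notes; how reads were assigned to genes is not given in the sources used here. Of 23481 genes, 8619 had no count in any library. Low counts were filtered with filterByExpr, leaving 4720 genes with 95.7% of UMIs. All libraries of the 64 groups were fitted together with edgeR 4.0.16 (R 4.3.3; TMM, quasi-likelihood test, Benjamini-Hochberg), which leaves 128 residual degrees of freedom. Above or below both used the larger of both p-values. CPM values are TMM-scaled. DESeq2 1.42.0, RLE factors, library size alone, no filter, thinning to 46564 counts, a replicate block, the compared groups alone, no fold threshold, a narrower margin and leaving out each library were tried as alternatives. In data simulated for the comparison against both ligands over 4720 genes, 22 of 100 genes changed 2-fold (43 without the fold threshold, on which such genes lie) and 97 of 100 changed 4-fold were recovered, with 0 false calls above and 1 below. Only genes at 20 CPM or more with the higher single ligand were changed, and counts were drawn with the spread fitted here. Recovery of genes at lower levels, such as Clic5 and Nos2, was not tested. The UMI totals of 107471 to 191207 in the 9 libraries limit precision for genes of few counts. Counting intervals and floors cover counting error only.

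The members and gene lists were chosen with earlier results of these data known. Genes are named by a rule: 10 by name; the 12 with the largest gain over both ligands and the 8 with the largest fall below both, at 20 CPM or more and with no overlap; the 4 kept and 4 lowered genes of each side with the largest PAM to cGAMP difference; and list members above or below both. Every column used belongs to a sample of the series, and the fit drew its filter and spread from all 64 groups.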

Additional observations from a re-analysis of the deposited data

Results flagged for a closer look

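For 10 of the genes named above, what cGAMP added to PAM differed between libraries with and without HMW by a test of the difference itself (edgeR's quasi-likelihood test, Benjamini-Hochberg over all tested genes). Of all 4720 tested genes 84 (1.78%) differed, and in 83 of them the effect was smaller with HMW. Values are the effect with HMW minus the effect without, on the log2 scale, and all 10 named genes are below 0. Apart from those chosen by name, these genes were named for their values with the pair or with PAM. Those same values enter the difference, so the choice favours values below 0. Among interferon-induced genes the difference was -2.17 for Ifit1, -1.93 for Oasl1, -1.59 for Cxcl10, -1.47 for Cmpk2 and -1.29 for Ifit3. Among cytokines and chemokines it was -1.14 for Ccl4, -1.12 for Ccl5, -0.758 for Il1a and -0.657 for Il6. It was -3.23 for Tlr6, which gave 24 counts with the pair and 3 with PAM.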

How the results depend on the processing

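Replicate numbers did not pair the samples: of 9 correlations of deviations between same-numbered libraries, from -0.0172 to 0.0345, 0 exceeded 0.1. With the replicate block 70 genes were above both and 8 below, and Tap2, then just under the fold threshold against cGAMP, was no longer called. Library size alone gave 735 genes below PAM, 320 below cGAMP, 35 above and 48 below both, 310 PAM-higher genes lowered, 26 above both with HMW, and medians of -0.92 and -0.49 for the pair minus the higher ligand over PAM-higher and cGAMP-higher genes; RLE factors gave medians of -0.71 and -0.33 (medians under both scalings, and the alternatives for the HMW differences, were added after seeing the data). DESeq2 gave 47 negative interactions, and no filter 18 positive ones. Thinning to equal totals, which leaves fewer counts, gave 109 genes above and 13 below PAM, 38 above and 1 below cGAMP, 10 above and 0 below both, 59 PAM-higher genes (7 kept, 7 lowered), 124 cGAMP-higher genes (25 kept, 1 lowered), 1 positive and 2 negative interactions, 5 above both with HMW and 14 differing effects of cGAMP. With no fold threshold 129 were above and 13 below both, 286 PAM-higher and 144 cGAMP-higher genes were lowered, and 102 were above both with HMW. A margin of 1.5-fold kept 22 PAM-higher and 83 cGAMP-higher genes. Leaving out 1 library gave 55 to 69 genes above both and 4 to 11 below both, 4 without PAM_cGAMP replicate 2 and 5 without cGAMP replicate 2. Of 1600 values for named genes 1494 kept direction and side of the threshold, 95 no longer passed it (50 of them thinned), 2 newly passed it, 6 changed sign and 3 came to 0. Thinned, the log2 difference was -0.15 for Ifnb1 and -0.43 for Osgin2 against cGAMP, 0.15 for Ppfia3 against PAM, 0 for Rxra against cGAMP and 0 for Tmem37 against PAM. Without 1 library, Ppfia3 against PAM ran from -0.497 to 0.216 (0.02 without PAM_cGAMP replicate 3, 0.17 without PAM replicate 3), and Rxra against cGAMP from 0 to 2.64. The cause of these changes was not tested, other than the smaller totals after thinning.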
